A study of Homo sapiens with 4 samples.

Results

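The genes described here handle iron in the cell: ferritin, transferrin, the transferrin receptors, the exporter ferroportin, hepcidin, HFE and both iron regulatory proteins. They were chosen by gene symbol. All 10 symbols (FTH1, FTL, TF, TFRC, TFR2, SLC40A1, HAMP, HFE, IREB2 and ACO1) matched a row, out of 20226 genes in each table. RNA sequencing compared 2 libraries of untreated Huh7 cells, a human hepatocellular carcinoma line, that carry a short hairpin RNA against NUP210 (shNUP210) with 2 libraries of untreated Huh7 cells that the titles name shCon and the labels give as wild type. NUP210 encodes a membrane protein of the nuclear pore. The hairpin sequences, the number of hairpins and whether cells were pooled or cloned are not given in the sources used here, nor is the origin of each library in a separate culture, so p-values here describe library-to-library spread only, and that spread may be technical.

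Iron travels in plasma bound to transferrin, which hepatocytes secrete, and enters cells when the transferrin receptor takes up the loaded protein. Inside the cell, iron that is not used is kept in a shell of ferritin heavy and light chains, and ferroportin is the protein that lets it out again. Hepatocytes also make hepcidin, a peptide hormone that removes ferroportin from cell surfaces, and they tune it through HFE, transferrin receptor 2 and bone morphogenetic protein signals. Iron regulatory proteins bind a hairpin in messenger RNA, the iron-responsive element (IRE), when iron is scarce: in the 5′ UTR it blocks translation, and in the 3′ UTR of the transferrin receptor it protects the message from decay.

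The IREs are shown because they are the sequence feature through which the ferritins, ferroportin and the transferrin receptor are known to be controlled. In GENCODE release 29 transcripts a match required an unpaired C, 5 paired bases, the loop CAGTGN with N not G, the 5 pairing bases (G with T allowed), and at least 3 of 5 possible pairs in the lower stem. Of 19643 listed genes with a transcript sequence, 35 (0.178%) had a match in a UTR, among them 5 of the 10 iron genes (none in TFR2, HAMP, HFE, IREB2 or ACO1). Each line gives 30 bases as DNA, 5′ to 3′, with the unpaired C and the loop in capitals.
FTH1, 5′ UTR, chr11:61967573-61967602, minus strand: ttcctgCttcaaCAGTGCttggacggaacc
FTL, 5′ UTR, chr19:48965335-48965364, plus strand: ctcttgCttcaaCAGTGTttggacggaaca
SLC40A1, 5′ UTR, chr2:189580660-189580689, minus strand: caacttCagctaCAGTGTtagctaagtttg
TFRC, 3′ UTR, chr3:196050978-196051007, minus strand: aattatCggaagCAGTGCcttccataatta
TFRC, 3′ UTR, chr3:196050574-196050603, minus strand: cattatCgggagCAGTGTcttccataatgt
TFRC, 3′ UTR, chr3:196050509-196050538, minus strand: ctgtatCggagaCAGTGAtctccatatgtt
TFRC, 3′ UTR, chr3:196050462-196050491, minus strand: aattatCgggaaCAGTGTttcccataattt
TF, 3′ UTR of 1 long transcript, chr3:133792673-133792702, plus strand: tgaatgCattttCAGTGAaagattataaca
The 4 TFRC sites and the SLC40A1 site had 5 pairs in the lower stem, both ferritin sites had 4, and the TF site had 3, the minimum of the rule. FTH1 and FTL share the same upper stem letters on both sides of the loop. A match is a description of the sequence, and coordinates are GRCh38. Elements that depart from the rule are not shown, so the number of sites printed for a gene need not be its full number.

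After knockdown the messages for iron storage and plasma iron transport were lower, while those for uptake and sensing did not pass the test. FTH1 and FTL, the ferritin heavy and light chains, fell to 0.634 and 0.643 of the control mean, and TF, transferrin, fell to 0.581. By limma on log2(TPM + 1), where TPM is a level scaled to transcript length and to a fixed library total, 3 of the 9 tested members were called lower at an adjusted p of 0.05 and 0 were called higher. Among all 10140 tested genes, 1.07% were called lower and 1.79% higher (2.86% in all). Abundant genes were called lower more often: 19 of the 141 with a mean of at least 1000 TPM, a class that holds the 3 called members. The members' median log2 fold change was -0.15, against 0.23 for all tested genes. TFR2, a sensing receptor that was not called, had a larger fall than the 3 called members (-0.89, SE 0.28). The calls therefore do not separate storage and transport from sensing. At an unadjusted p of 0.05, 5 of the 9 passed, against 24.3% of all tested genes. In bulk RNA, fewer cells of a type and less RNA per cell cannot be told apart.

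FTH1 (ENSG00000167996, GRCh38 chromosome 11, 61959718 to 61967660, minus strand, protein-coding) encodes the ferritin heavy chain, which oxidises iron as it enters the shell. Its level was 8901 and 8269 TPM in shNUP210 cells and 13771 and 13290 TPM in the shCon libraries. Both knockdown libraries lay below both controls, and FTH1 ranked 9th among all genes in each knockdown library against 7th and 8th in the controls. Its log2 fold change was -0.66 (SE 0.06, limma adjusted p = 0.00999).

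FTL (ENSG00000087086, chromosome 19, 48965301 to 48966878, plus strand, protein-coding) encodes the light chain, which aids the growth of the iron core. It was at 4008 and 4101 TPM after knockdown and at 6279 and 6334 TPM in the controls. Both knockdown libraries lay far below both controls, and the replicates of each group lay close together. The log2 fold change was -0.64 (SE 0.05, limma adjusted p = 0.00977).

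TF (ENSG00000091513, chromosome 3, 133745956 to 133796640, plus strand, protein-coding) encodes transferrin, the plasma carrier of iron. After knockdown it stood at 1367 and 1252 TPM, against 2274 and 2230 TPM in the controls. Neither knockdown library reached the lower control, and the log2 fold change was -0.78 (SE 0.07, limma adjusted p = 0.0133). With 1 library left out, the adjusted p was above 0.05 for FTH1 (0.0829 to 0.104), FTL (0.0829 to 0.118) and TF (0.0754 to 0.116), for each of the 4 libraries, with folds of -0.71 to -0.60, -0.65 to -0.62 and -0.85 to -0.72. After quantile normalization FTH1 was no longer called (-0.25, adjusted p = 0.0764), while FTL and TF were.

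**Figure D1:**
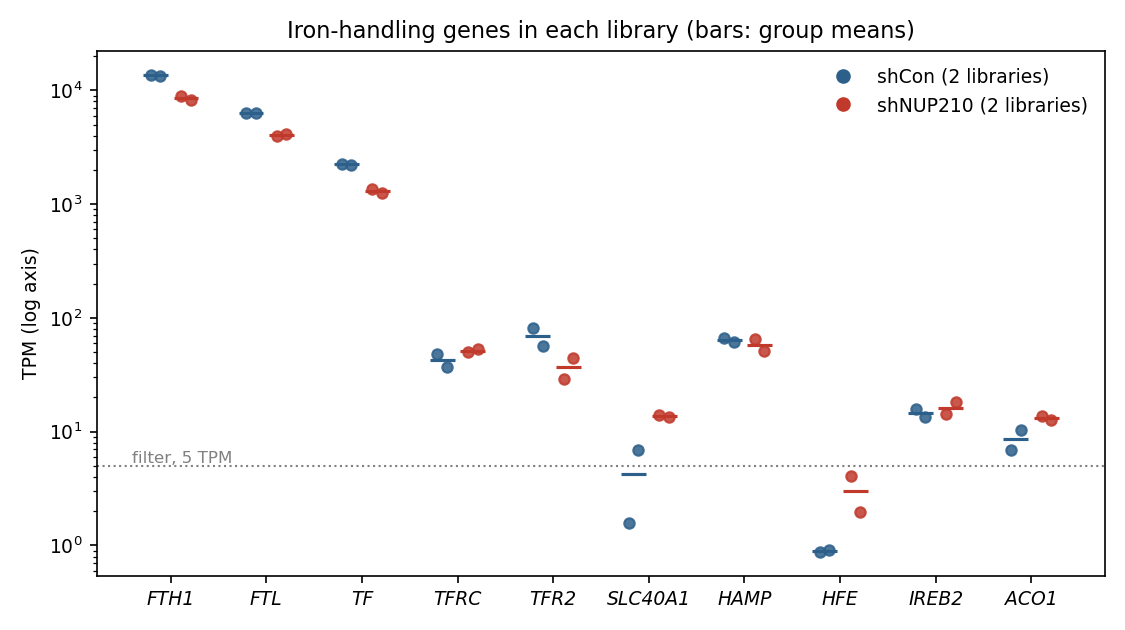
TPM of the 10 iron-handling genes on a log axis, 1 point per library, with short bars at the group means (2 shCon and 2 shNUP210 libraries); the dotted line marks the 5 TPM filter. FTH1, FTL and TF sit at 1252 to 13771 TPM with the knockdown libraries lower, and the other members lie at 81.2 TPM or lower.

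Both chains fell by a similar share. The ratio of FTH1 to FTL TPM was 2.22 and 2.02 after knockdown and 2.19 and 2.10 in the controls, with overlapping groups. FTH1 and FTL together took 1.29 and 1.24% of all TPM in the shNUP210 libraries against 2.005 and 1.96% in the shCon libraries. TF took 0.137 and 0.125% against 0.227 and 0.223%.

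Reads may be shared between the ferritin genes and other loci, and the effect of such sharing was not tested. FTH1 shares 1267 exon bases with BEST1, a chloride channel gene on the opposite strand, and the sources used here do not say whether reads were counted by strand. BEST1 was at 739 and 855 TPM after knockdown and 1027 and 1014 TPM in the controls, with a log2 fold change of -0.36 (limma adjusted p = 0.1, not called). The sum of FTH1 and BEST1 was at 0.645 of the control mean, against 0.634 for FTH1 alone, although TPM of overlapping genes with different lengths do not add up to shared reads. TF shares 112 exon bases with SRPRB, which was at 81.8 and 64.0 TPM after knockdown and 48.9 and 51.4 TPM in the controls, higher where TF was lower (0.52, adjusted p = 0.159). The 12 listed FTH1 and FTL pseudogenes together made up 0.0676 to 0.237% of the ferritin TPM in each library, and 10 of them were under the filter. FTLP3 and FTLP12 were tested and not called. Adding all 12 to both chains gave a knockdown mean at 0.637 of the control mean. At so small a share the pseudogenes could hardly move this value, so the sum does not show how reads were assigned.

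Of the 141 tested genes with a mean of at least 1000 TPM, the median of the log2 fold changes was -0.13, with 19 called lower and 8 higher. In that class, 7 genes had a log2 fold change at or below that of FTH1, 8 at or below that of FTL and 4 at or below that of TF, each count including the gene itself. Of the 66 genes with a mean of at least 2000 TPM, where FTH1 and FTL lie, the median was -0.21, with 14 called lower and 3 higher.

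**Figure D2:**
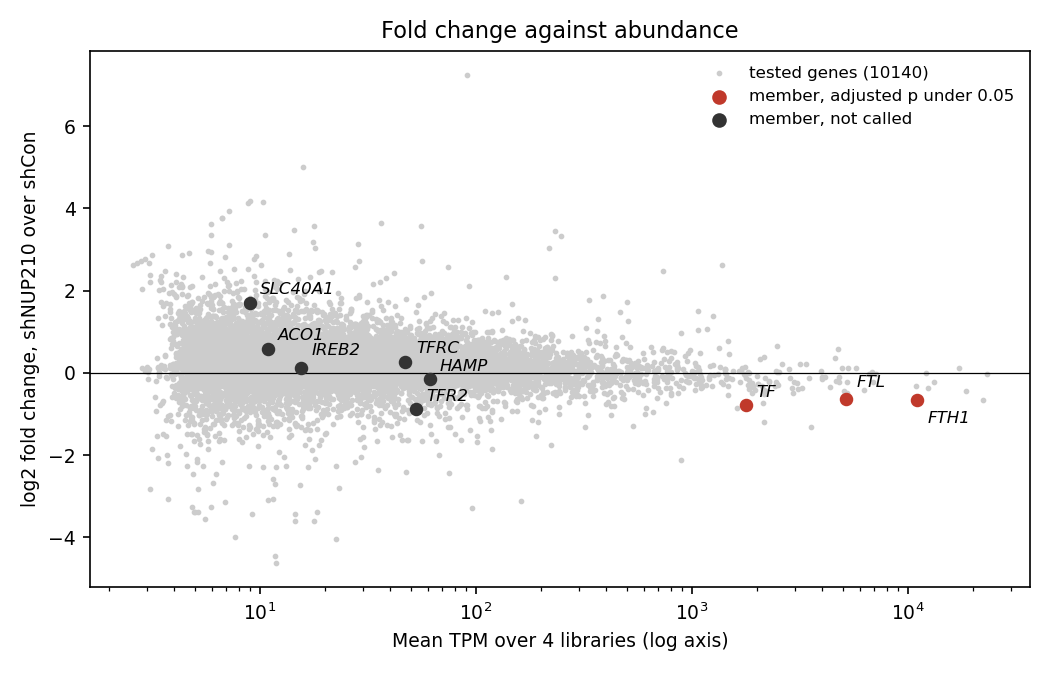
Log2 fold change (shNUP210 over shCon) against mean TPM on a log axis for all 10140 tested genes in grey, with the 9 tested iron genes marked. FTH1, FTL and TF lie at the abundant end with folds of -0.66, -0.64 and -0.78, below the -0.13 median of genes at 1000 TPM or more.

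The uptake receptors were far less abundant than their ligand. TFRC (ENSG00000072274, chromosome 3, 196027183 to 196082189, minus strand), the receptor for loaded transferrin, was at 49.7 and 53.3 TPM after knockdown and 48.6 and 37.0 TPM in the controls. The groups were next to each other, 1 control library nearly reaching the knockdown libraries. The log2 fold change of 0.27 (95% interval -0.21 to 0.76, limma adjusted p = 0.429) did not pass the test. TFR2 (ENSG00000106327, chromosome 7, 100620416 to 100642779, minus strand), a hepatocyte receptor that senses loaded transferrin and signals to hepcidin, was at 29.2 and 44.5 TPM against 81.2 and 56.6 TPM. Both knockdown libraries were below both controls, but replicates spread widely and the fold of -0.89 (interval -1.58 to -0.21) was not called (adjusted p = 0.138). These intervals are not adjusted for the number of genes.

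Ratios within a library do not depend on a scaling by 1 factor per library. TFRC amounted to 5.58 and 6.45 per 1000 of FTH1 after knockdown and 3.53 and 2.78 per 1000 in the controls, a ratio of means of 1.91 (1.70 to 2.16 with 1 library left out). Quantile normalization is no such scaling: after it the log2 fold changes were 0.06 for TFRC and -0.25 for FTH1, nearer to each other than the 0.27 and -0.66 without it. Without it, the log2 fold changes less the all-gene median were 0.04 for TFRC and -0.89 for FTH1. The TFRC to FTH1 ratio thus moved mainly with FTH1. The TFR2 to TFRC ratio was 0.588 and 0.834 against 1.67 and 1.53. With 2 libraries a group, the smallest p of a two-sided permutation test of such a ratio is 0.33, and no test was run.

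SLC40A1 (ENSG00000138449, chromosome 2, 189560579 to 189583758, minus strand) encodes ferroportin, the only known iron exporter of animal cells. After knockdown it was at 14.1 and 13.4 TPM, and in the controls at 1.58 and 6.91 TPM. Both knockdown values were above both control values, and the controls lay far apart from each other. The log2 fold change of 1.71 (interval 0.27 to 3.15) was not called (limma adjusted p = 0.159). It was 0.90 without shCon replicate 1 and 2.52 without shCon replicate 2. SLC40A1 and both ferritins carry the IRE in the 5′ UTR, as printed above. There it acts on translation, which RNA levels do not measure, and its part in these values was not tested.

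HAMP (ENSG00000105697, chromosome 19, 35280716 to 35285143, plus strand), which encodes hepcidin, was at 65.0 and 51.0 TPM after knockdown and 67.0 and 61.3 TPM in the controls. The groups overlapped, and the log2 fold change was -0.15 (interval -0.60 to 0.29, limma adjusted p = 0.630). HFE (ENSG00000010704, chromosome 6, 26087281 to 26098343, plus strand), a membrane protein related to class I histocompatibility molecules that acts upstream of hepcidin, was at 4.05 and 1.95 TPM against 0.88 and 0.91 TPM. No library reached 5 TPM, so HFE was not tested in the main fit. With a filter of 1 TPM in 2 libraries its adjusted p was 0.290.

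IREB2 and ACO1 encode the iron regulatory proteins, which bind IREs, ACO1 being also a cytosolic aconitase when it holds an iron-sulfur cluster. IREB2 (ENSG00000136381, chromosome 15, 78437431 to 78501456, plus strand) was at 14.2 and 18.2 TPM after knockdown and 15.9 and 13.5 TPM in the controls, with overlapping groups (0.13, interval -0.53 to 0.78, limma adjusted p = 0.799). ACO1 (ENSG00000122729, chromosome 9, 32384603 to 32454769, plus strand) was at 13.8 and 12.6 TPM against 6.85 and 10.3 TPM, with both knockdown libraries above the controls (0.59, interval -0.20 to 1.38, adjusted p = 0.307). Neither was called.

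In order of control level the members ran FTH1, FTL, TF, TFR2, HAMP, TFRC, IREB2, ACO1, SLC40A1 and HFE, from 13531 ± 340 to 0.90 ± 0.02 TPM (SD, n = 2). TFR2 (68.9 ± 17.4), HAMP (64.2 ± 4.0) and TFRC (42.8 ± 8.2) are neighbours in that order, and the single values of TFR2 and HAMP overlapped. ACO1 (8.57 ± 2.43) and SLC40A1 (4.24 ± 3.77) overlapped between libraries by a small margin, at 6.85 and 6.91 TPM, while ACO1 was the higher of the pair within each control library. After knockdown HAMP (58.0 ± 9.9) was followed by TFRC (51.5 ± 2.6) and TFR2 (36.9 ± 10.8), and SLC40A1 (13.8 ± 0.5) stood beside ACO1 (13.2 ± 0.8). Of the 9 tested members, 4 were lower and 3 higher with no overlap between groups, against 14.3% lower and 42.9% higher (57.3% in all) among all tested genes.

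**Figure D3:**
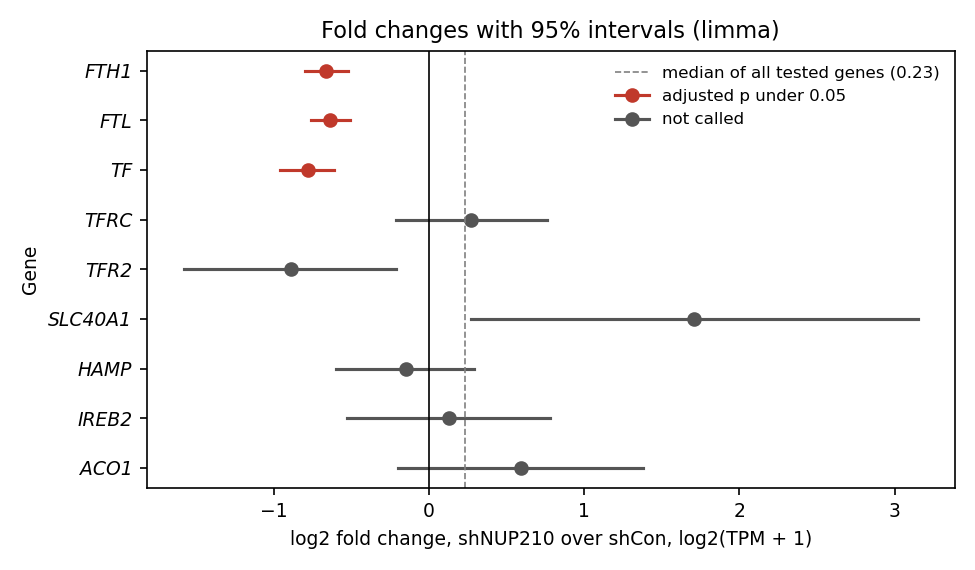
Log2 fold change of the 9 tested iron genes on the log2(TPM + 1) scale, with 95% intervals from limma that are not adjusted for multiple testing; the dashed line is the median of all tested genes (0.23). FTH1, FTL and TF have narrow intervals below 0, and SLC40A1 has the widest, from 0.27 to 3.15.

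Folds near 0 depend on the scaling of the libraries. Over all tested genes the median fold was 0.23 without further scaling and 0.01 after trimmed-mean scaling (log2). With that scaling FTH1, FTL and TF were at -0.90, -0.88 and -1.03 and stayed called, and TFRC was at 0.03, HAMP at -0.39, IREB2 at -0.10 and SLC40A1 at 1.5, none called. IREB2 thus changed sign with the scaling.

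The pattern most like FTH1 over the 4 libraries was that of FTL, with a root mean square difference of 0.055 in centred log2(TPM + 1), among 42 tested genes within 4-fold of its level. APOA2, a high-density lipoprotein protein, came next (0.077). For TFRC the nearest of 6128 genes were NPC2 (0.017), LZTR1 (0.018) and OPTN (0.018).

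The upstream windows of FTL and TF are printed because both genes fell. Windows were matched for 8 of the 10 members, and not for FTH1 and TFR2. They come from RefSeq (GRCh38.p14), 250 bases ending just before the annotated start, with each match to a searched motif in capitals. The motifs were the CCAAT box (bound by NF-Y), the TATA box in the form TATAAA, the GC box in the form GGGCGG, an antioxidant-response core written TGACNNNGC, and a C/EBP-type motif written TTNNGNAA. Both strands were searched.
FTL, chr19:48965059-48965308, plus strand: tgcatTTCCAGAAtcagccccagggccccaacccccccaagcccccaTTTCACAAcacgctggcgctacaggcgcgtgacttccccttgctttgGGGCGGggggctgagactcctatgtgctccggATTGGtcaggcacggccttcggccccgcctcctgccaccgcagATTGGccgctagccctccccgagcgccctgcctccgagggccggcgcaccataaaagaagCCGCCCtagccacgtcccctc
TF, chr3:133746143-133746392, plus strand: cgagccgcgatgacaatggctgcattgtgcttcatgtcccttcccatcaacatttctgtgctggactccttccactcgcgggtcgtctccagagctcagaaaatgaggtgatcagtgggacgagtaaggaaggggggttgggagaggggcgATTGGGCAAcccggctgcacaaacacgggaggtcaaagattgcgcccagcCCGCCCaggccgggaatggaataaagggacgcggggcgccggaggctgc
The FTL window held 2 matches each to the CCAAT box, the GC box and the C/EBP-type motif. The printed TF window held 1 of each, and its CCAAT box and C/EBP-type matches overlap, beginning 99 and 98 bases before the start. Neither printed window held the TATA box form or the antioxidant-response core. A second RefSeq window of TF, before a start at 133661998, held 3 GC box matches and 0 of the other motifs. HFE, which was not tested, held the same 3 motifs as the printed windows. Of all 35116 windows of this length, 32.0% held the CCAAT box, 42.6% the GC box, 33.2% the C/EBP-type motif, 10.7% the TATA box form and 10.9% the antioxidant-response core. These are matches of letters, with no binding measured.

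Of the 21 tested genes with an IRE match in a UTR, 0 were called higher and 3 lower, against 1.79% and 1.07% of all tested genes. The 3 were FTH1, FTL and TF themselves, so the count adds nothing beyond those members. The median log2 fold change of the 21 was 0.31, against 0.23 for all tested genes.

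Other genes of iron metabolism were taken from 5 lists with 92 entries, of which 90 were listed and 71 tested. Only BMP2 was called, in the higher direction, and 70 did not pass (13 of the 71 at an unadjusted p of 0.05, against 24.3% of all tested genes). The median of the 71 was 0.14, against 0.23 for all tested genes.

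Ferritin turnover and iron chaperone genes had 0 of 6 tested members called, with a median of 0.12, against 2.86% and 0.23 for all tested genes. PCBP1 and PCBP2, chaperones that bring iron to ferritin, were at 471 ± 2 and 409 ± 9 TPM after knockdown and 467 ± 22 and 436 ± 34 TPM in the controls (SD, n = 2; limma adjusted p 0.946 and 0.606). Their intervals, -0.20 to 0.22 and -0.32 to 0.15, lie above those of the ferritins. NCOA4, the receptor that takes ferritin to the lysosome, was named after its values were seen and was at 45.9 and 50.5 TPM against 38.8 and 39.6 TPM (adjusted p = 0.327).

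Other import, reduction and oxidation genes had 0 of 7 tested members called, against 2.86% of all tested genes. Of the 15 listed, 8 were under the filter. SLC39A14, a transporter that takes up iron not bound to transferrin, was at 180 and 284 TPM after knockdown and 162 and 177 TPM in the controls (limma adjusted p = 0.303). SNX3, a sorting protein of transferrin receptor recycling, was at 267 and 291 TPM against 273 and 271 TPM (adjusted p = 0.862). CP, ceruloplasmin, the plasma ferroxidase, was singled out after its values were seen, at 10.2 and 10.7 TPM against 14.9 and 19.0 TPM (adjusted p = 0.219).

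Hepcidin regulators had the highest list median, 0.50, against 0.23 for all tested genes. The list mixes genes that induce hepcidin with genes that restrain it, so its median gives no direction for HAMP. HAMP itself overlapped between groups. BMP2, a ligand that induces hepcidin in hepatocytes, rose from 34.1 and 34.7 TPM in the controls to 64.3 and 67.7 TPM (log2 fold change 0.92, SE 0.16, limma adjusted p = 0.0496). It was called in 2 of 16 alternatives, and its adjusted p was 0.157 to 0.2 with any 1 library left out. The other 15 of 16 tested members were not called, while 9 of the 16 passed an unadjusted p of 0.05 (24.3% of all tested genes did). ID1, a target gene of BMP signals and the most abundant member, was at 1110 and 1113 TPM against 746 and 849 TPM (adjusted p = 0.0544). B2M, the partner chain of HFE, was at 434 and 426 TPM against 314 and 388 TPM (adjusted p = 0.212).

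A further 3 regulators were named after their values were seen. SMAD6, an inhibitor that BMP signals induce, was at 53.1 and 52.4 TPM after knockdown and 24.4 and 28.7 TPM in the controls (limma adjusted p = 0.0569). TMPRSS6, the liver protease that restrains hepcidin, was at 6.03 and 3.91 TPM against 15.9 and 15.6 TPM (adjusted p = 0.0758). ACVR1, a type I BMP receptor, was at 4.58 and 3.23 TPM against 14.8 and 16.6 TPM (adjusted p = 0.0589). Over the list, 10 of the 16 tested genes were higher and 2 lower (TMPRSS6 and ACVR1) with no overlap between groups, against 42.9% and 14.3% of all tested genes. After trimmed-mean scaling ACVR1 was called lower (-1.99, adjusted p = 0.0458) and BMP2 was not called. The log2 fold change of ID1 went from 0.48 to 0.24 with that scaling, and that of SMAD6 from 0.97 to 0.73. That of TMPRSS6 went from -1.51 to -1.72, and none of these was called.

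Mitochondrial iron and iron-sulfur assembly genes had 0 of 26 tested members called, with a median of 0.17, against 2.86% and 0.23 for all tested genes. CIAO2B, of the cytosolic assembly machinery, was at 296 and 235 TPM against 231 and 245 TPM, and HSPA9, the mitochondrial chaperone, at 133 and 153 TPM against 119 and 122 TPM (limma adjusted p 0.552 and 0.292). Heme synthesis, breakdown and transport genes had 0 of 16 called, with a median of -0.12, again against 2.86% and 0.23. HPX, hemopexin, the plasma carrier of heme, was at 190 and 134 TPM against 250 and 242 TPM (adjusted p = 0.118), and UROD, an enzyme of heme synthesis, at 114 and 118 TPM against 134 and 139 TPM (adjusted p = 0.281).

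**Figure D4:**
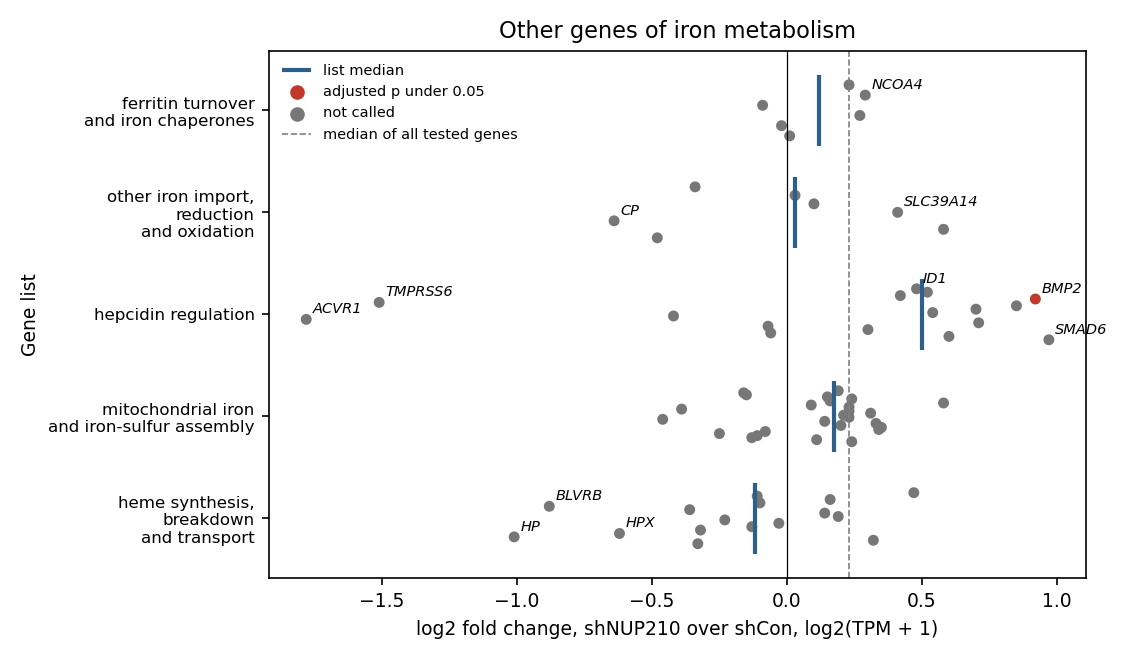
Log2 fold changes of the 71 tested genes in 5 further iron lists, 1 point per gene, with list medians as blue bars and the median of all tested genes (0.23) dashed; vertical position within a list carries no value. BMP2 is the only called gene, and hepcidin regulators reach from -1.78 (ACVR1) to 0.97 (SMAD6).

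The series as a whole gives this context. NUP210 was at 10.1 and 9.85 TPM after knockdown and 32.8 and 27.3 TPM in the controls (limma adjusted p = 0.0432). It was called in 8 of 16 alternatives, and not with the replicate block (adjusted p = 0.082) or with any 1 library left out (0.162 to 0.167). All 10 hepatocyte and hepatoma markers were tested. Of these, 3 were called lower (TF, APOA1 and SERPINA1) and 0 higher, against 1.07% and 1.79% of all tested genes. TF is itself an iron member, so only APOA1 and SERPINA1 are calls beyond those of the members. AFP, TTR, HNF4A and FOXA2 were higher in both knockdown libraries than in both controls, as were 42.9% of all tested genes, and were not called. TTR was the closest to a call (limma adjusted p = 0.0501). ALB was at 2459 and 2529 TPM against 2627 and 2332 TPM (adjusted p = 0.949). Of 7 erythroid markers 3 were listed, and without TFRC they summed to 5.42 to 8.27 TPM. The 5 listed macrophage markers summed to 6.30 to 22.3 TPM after knockdown and 27.7 to 35.4 TPM in the controls. Most of that difference was CD68, at 13.85 and 2.48 TPM against 30.66 and 17.85 TPM, not called. The 4 listed stellate or fibroblast markers summed to 18 to 36.1 TPM and 10.3 to 15.0 TPM. Most of that difference was COL1A1, at 18.92 and 7.55 TPM against 1.25 and 3.8 TPM, not called. The 1 listed endothelial marker was at 0 in both knockdown libraries and at 0 to 4.15 TPM in the controls. The part of these markers in the iron gene values was not tested. TPM keep no read depth, so the depth behind each value is unknown.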

How the data were processed

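RNA-seq of 4 Huh7 libraries (2 shNUP210, 2 shCon, grouped by title) was analysed from 1 table per library. The values the authors deposited are TPM, as read from column totals of 999992.7 to 999997.8. Trimmomatic, STAR, RSEM and DESeq are named with hg38, with no versions or roles, per the submitters' processing notes. The sources used here give no annotation release. Coordinates, exon overlaps and transcripts came from GENCODE 29 on GRCh38, and promoters from RefSeq.

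Genes with at least 5 TPM in 2 libraries were tested in R 4.3.3 with limma 3.58.1. The fit took log2(TPM + 1) without further scaling, and eBayes used a mean-variance trend. P-values were two-sided, adjusted by Benjamini-Hochberg over all 10140 genes tested, and calls are at 0.05. Fold changes on this scale understate changes of low genes. The fit was tested on simulated data. The members, lists, motifs and settings were chosen with earlier results of these data known. Named were all 10 members, and of each list the called genes and the 2 most abundant tested genes; others are marked where they appear. Older symbols were matched by gene identifier (HJV, CIAO2B and others). Alternatives were other filters, pseudocounts, scalings, priors, a replicate block and leaving out each library. A gene that the likeness rule named is not reported here.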

Additional observations from a re-analysis of the deposited data

How the results depend on the processing

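The 16 alternatives kept FTH1, FTL and TF lower throughout. FTH1 was called in 9 of them, FTL and TF in 10. Without a filter and without the mean-variance trend the folds were -0.66, -0.64 and -0.78 for FTH1, FTL and TF and were not called (limma adjusted p 0.085 to 0.104 and 0.137 to 0.152), and after quantile normalization FTH1 was at -0.25. With 1 library left out, where the lone library of a group is taken to vary like the other group, folds were -0.71 to -0.60 for FTH1, -0.65 to -0.62 for FTL and -0.85 to -0.72 for TF, and 0 members were called in each of the 4 fits (3 to 5 at an unadjusted p of 0.05).

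The count of called members was 3 in the main test and 0 with no filter or no trend (5 at an unadjusted p of 0.05 in both). For all genes, 290 calls became 14 with no filter, 57 with 1 TPM in 2 libraries, 0 with no trend (2290 at an unadjusted p of 0.05) and 4 to 27 with 1 library left out. For other iron genes, the 1 call became 2 with 1 TPM in all 4 libraries and 0 with no filter, 1 TPM in 2 libraries, pseudocount 0.1, no trend, the robust prior or any library left out (8 to 13 at an unadjusted p of 0.05). Under trimmed-mean, median-ratio and upper-quartile scaling and quantile normalization the 1 call was ACVR1, lower, and BMP2 was not called. After trimmed-mean scaling the all-gene split of 181 higher and 109 lower became 78 and 250. Median-ratio scaling gave 81 and 248, upper-quartile scaling 92 and 230, and quantile normalization 87 and 116.

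With the replicate block, FTH1, FTL and TF stayed called (limma adjusted p 0.0168, 0.0219 and 0.0265), all genes had 63 calls and other iron genes 0 (12 at an unadjusted p of 0.05). Libraries share only a number: the deviations of same-numbered libraries correlated at 0.023 over 10140 genes.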
